A study of Mus musculus with 4 samples.

Results

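The genes of the constitutive proteasome, the protein complex that degrades most ubiquitin-tagged proteins of the cell, were followed in RANKL-treated macrophages with and without dimethyl itaconate (DI). Members were taken as the genes that the deposited annotation table places in the KEGG pathway Proteasome, and the inducible subunits Psmb8, Psmb9 and Psmb10 were set aside. The pathway held 44 of the 34745 genes in the table, which left 41 members. They were split by name into 16 genes of the 20S core (Psma and Psmb), 16 genes of the 19S regulatory particle (Psmc and Psmd) and 9 others. The others were the chaperone gene Pomp, the activator genes Psme1, Psme2, Psme2b, Psme3 and Psme4, the inhibitor gene Psmf1, the small lid subunit gene Shfm1, and the cytokine gene Ifng, which is no subunit.

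BMMs (bone marrow derived macrophages) came from wild-type male C57BL/6 mice 8 weeks of age. All cultures spent 12 h without FBS and then received RANKL, the cytokine that turns these cells into osteoclasts, at 100 ng/mL in complete medium for 24 h. One group also received DI, a cell-permeable ester of itaconate, and is called RANKL+DI here. The other received the vehicle DMSO and is called RANKL+DMSO. The labels give the dose of DI as 20 mM and the study's methods give 20 μM. Each group had 2 libraries of messenger RNA, and the labels do not say whether they came from separate mice or cultures. The study's methods state in general that in vitro experiments were repeated independently, without tying this to the libraries, so p-values measure the spread between these libraries, which may be technical. A group without RANKL was not analysed here.

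The 20S core is a barrel of stacked rings. Its outer rings are built from the alpha subunits and gate the entry, and its inner rings are built from the beta subunits, of which Psmb6, Psmb7 and Psmb5 carry the caspase-like, trypsin-like and chymotrypsin-like active sites. The 19S particle caps the barrel, binds ubiquitin chains, removes them and feeds the unfolded substrate in by means of a ring of ATPases. In immune cells the interferon-induced subunits Psmb9, Psmb10 and Psmb8 can take the places of Psmb6, Psmb7 and Psmb5. The transcription factors NRF1 and NRF2 are known to raise proteasome genes when the proteasome is inhibited or the cell is under electrophilic stress, and itaconate esters are known to act on KEAP1, the partner that holds NRF2 back.

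The libraries held between 16085692 and 19403480 counts. Levels are given as CPM, counts scaled to the same TMM-adjusted total in every library, where TMM is a scaling that sets the bulk of genes equal between libraries, and 3 counts correspond to 0.160 to 0.180 CPM. The 10 most abundant genes took 13.4% and 13.5% of the counts with DI and 10.5% and 10.6% with DMSO. Macrophage markers were abundant in every library, with a summed level of 28565 to 29373 CPM with DI and 22321 to 23185 CPM with DMSO. Most of that sum was Lyz2, at 22772 and 23786 CPM with DI and 18289 and 17630 CPM with DMSO. Of these markers, 5 of 6 were called higher with DI, and Csf1r was not called. Osteoclast markers were at 169 to 181 CPM with DI and 297 to 311 CPM with DMSO, and 5 of 8 were called lower, while Calcr, a marker of mature osteoclasts, was at 0 counts in all libraries. These markers moved with the treatment, and in bulk RNA fewer cells of a type and less RNA per cell cannot be told apart. The part of this shift in any result on the proteasome genes was not tested. Markers of B cells, T and NK cells, and erythroid cells each summed to under 1 CPM in every library, and those of neutrophils to at most 3.06 CPM. Stromal markers stood at 39.2 to 46.6 CPM, and none of the 4 that were tested was called.

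With DI most constitutive proteasome genes lay close to their level with DMSO, and 3 members rose. Of the 41 members, 39 passed the filter on low counts and entered the quasi-likelihood test of edgeR, with p-values adjusted over all 12590 tested genes by the Benjamini-Hochberg method. A gene was called at an adjusted p under 0.05. Of all tested genes, 14.8% were called, 7.14% higher and 7.70% lower with DI. Among the members, 3 were called higher (Pomp, Psmb5 and Psme4), 0 were called lower and 36 were not called. At an unadjusted p under 0.05, 7 members were higher and 2 lower, against 30.0% of all tested genes in either direction. The 2 groups did not overlap for 26 of the 39 members, 14 higher and 12 lower with DI, a share of 66.7% against 58.6% of all tested genes.

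Most members lay in a narrow band. The log2 fold change was within 0.2 of 0 for 35 of the 39 members, which is 89.7%, against 57.5% of all tested genes. Its standard deviation over the members was 0.14, against 0.40 over all tested genes, and its median was 0.0055, against 0.0012. The members were also deeply counted, with a median average log2 CPM of 6.70 against 4.70, so their values were more precise than those of a typical gene. Among the 5623 genes with an average log2 CPM over 5, a limit chosen after the values were seen, 67.0% lay within the same band and 23.7% were called, while 35 of the 38 members above that limit lay within it and 3 were called. At that depth the groups did not overlap for 67.8% of all genes and 68.4% of the members, so the shares were close. For 37 of the 39 members the whole 95% interval of the change lay within 0.5 of 0 on the log2 scale, which corresponds to 1.41-fold. The exceptions were Pomp, whose interval reached 0.57, and Psma8, which had few counts.

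**Figure D1:**
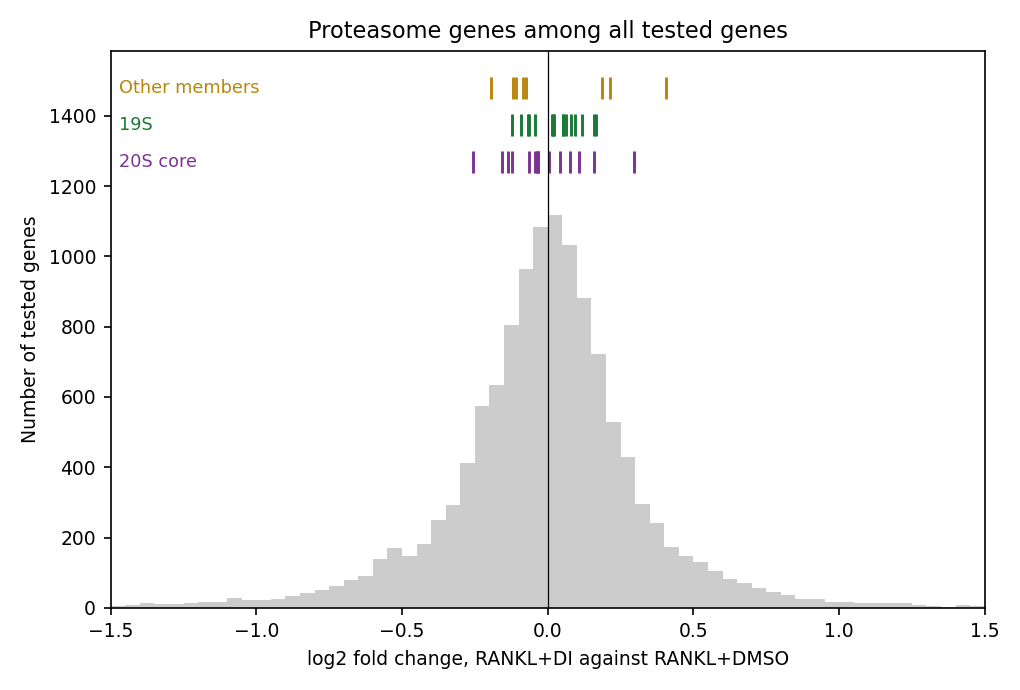
Number of tested genes (vertical axis) by log2 fold change with DI (horizontal axis, bins of equal width), with each of the 39 tested members drawn as a tick above the histogram by subcomplex. The ticks stand in the middle of the distribution, and 35 of them lie within 0.2 of 0.

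**Figure D2:**
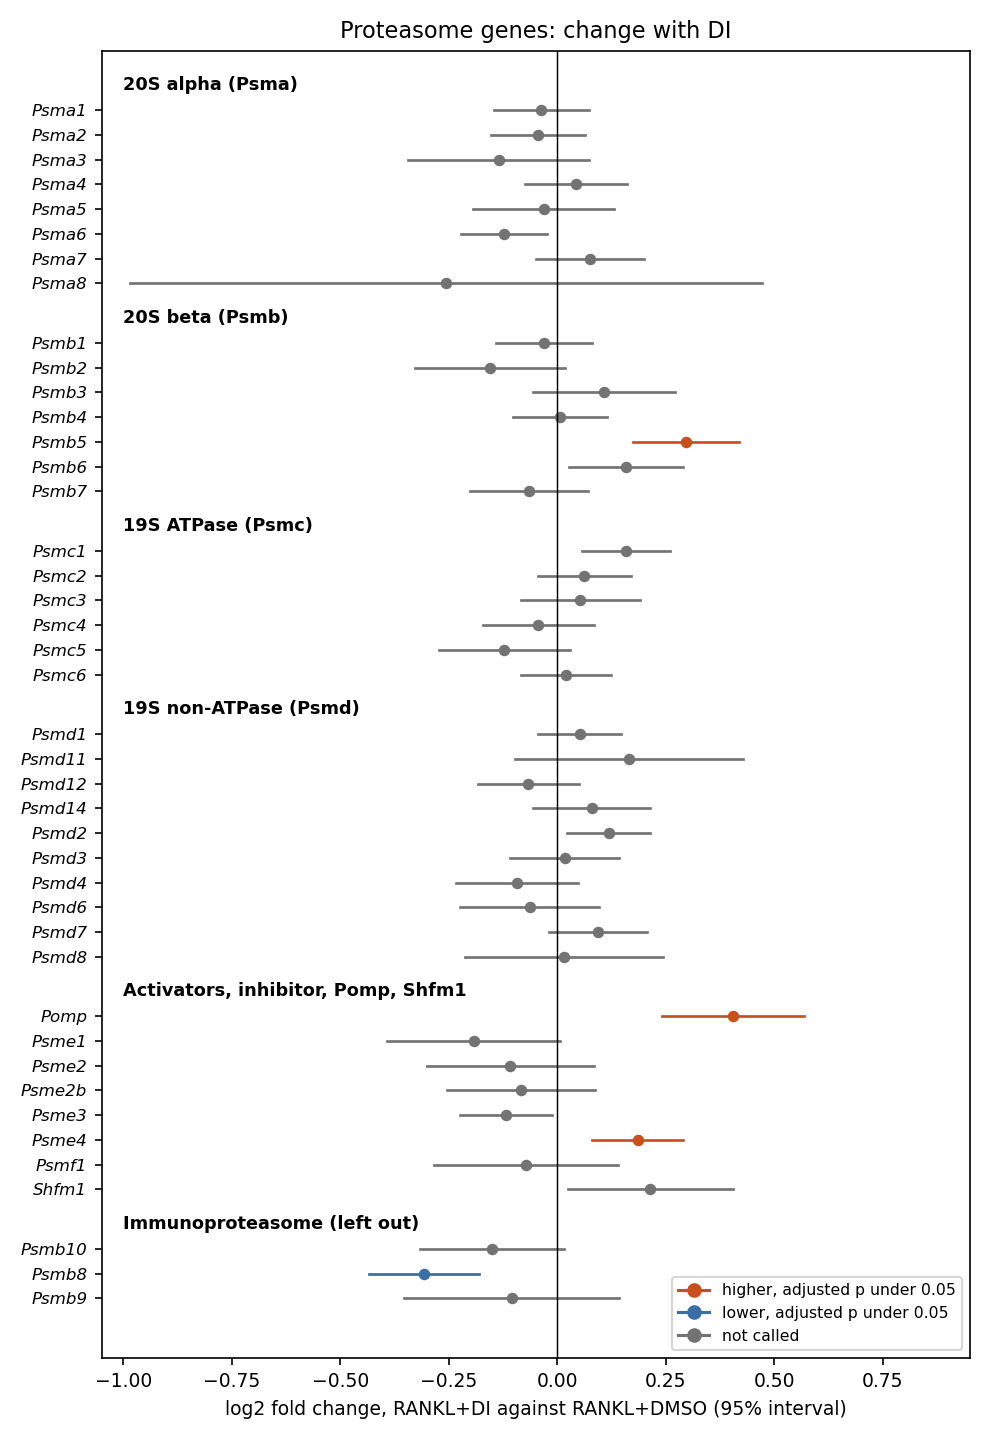
The log2 fold change of each tested member and of the 3 left-out immunoproteasome genes (dots) with its 95% interval (lines), from edgeR's quasi-likelihood fit with n = 2 libraries per group. Pomp, Psmb5 and Psme4 were called higher and Psmb8 lower, and Psma8 has the widest interval.

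No gene of the alpha ring was called. All 7 genes Psma1 to Psma7 were tested, and their log2 fold changes ran from -0.14 (Psma3) to 0.076 (Psma7) with a median of -0.037. Psma6 came nearest to a call, at 138 and 137 CPM with DI against 150 and 151 CPM with DMSO. Both DI libraries lay below both DMSO libraries, with a fitted difference of -8.24% and an adjusted p of 0.0994 (edgeR). Scaled by library size only, without TMM, Psma6 was called lower, with a log2 fold change of -0.23 and an adjusted p of 0.0139 (edgeR). Psma8, the alpha subunit of the testis proteasome, was counted 22 and 36 times with DI, and 38 and 30 times with DMSO. Its log2 fold change of -0.26 was the lowest of the 20S core, but its interval ran from -0.99 to 0.47, and a change was not detectable at this depth. Psmb11, the beta subunit of the thymus proteasome, had 0 counts in all libraries and was not tested.

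Of the 3 catalytic subunits of the beta ring, Psmb5 rose. Psmb5 (ENSMUSG00000022193, GRCm38 chr14:54614120-54617995) stood at 119 and 125 CPM in the RANKL+DI libraries and at 99.3 and 99.5 CPM in the RANKL+DMSO libraries. Both DI libraries were above both DMSO libraries, which were nearly equal to each other. The level was 122 ± 4.75 CPM with DI against 99.4 ± 0.156 CPM with DMSO (mean ± SD, n = 2), a rise of 0.30 on the log2 scale (SE 0.050, adjusted p = 0.0146, edgeR), or 22.8% higher. The call was lost without DI replicate 2 (adjusted p = 0.0506), without DMSO replicate 1 (0.0576) and without DMSO replicate 2 (0.0612, all edgeR), while the log2 fold change stayed between 0.26 and 0.33 with each library left out. Scaled by library size only, it was 0.19 with an adjusted p of 0.0483 (edgeR). The processed pseudogene Gm3375, which has no row in the deposited table, matches 88.4% of the Psmb5 transcript at 98.9% identity, so that some reads could come from either.

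The other 2 catalytic subunits were not called. Psmb6 stood at 144 and 151 CPM with DI and at 137 and 127 CPM with DMSO. Both DI libraries were above both DMSO libraries, but the distance between the nearest libraries of the groups was smaller than that between the DMSO libraries. The fitted change was 0.16 on the log2 scale (SE 0.054, adjusted p = 0.110, edgeR), with an interval from 0.027 to 0.29. Psmb7 stood at 113 and 120 CPM with DI and at 125 and 119 CPM with DMSO, and its groups overlapped. Its log2 fold change was -0.065 (adjusted p = 0.492, edgeR), with an interval from -0.20 to 0.071. The counting was not stated to use strand, and Psmb7 shares 11.8% of its exon bases with Nek6 on the opposite strand, so their reads there cannot be told apart. Nek6 matches 35.1% of the Psmb7 transcript that was searched, at 100% identity, and had 1209.5 counts per library on average.

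The 250 bases before the transcription start are shown for Psmb5 and Psmb6, the catalytic subunits with such a window in the RefSeq promoter table (GRCm38.p6). Capitals mark TGACNNNGC, a core of the antioxidant response element that NRF1 and NRF2 bind together with small MAF proteins. Both windows lie upstream of the start of the gene in the deposited table.
Psmb5, minus strand, chr14:54617996-54618245: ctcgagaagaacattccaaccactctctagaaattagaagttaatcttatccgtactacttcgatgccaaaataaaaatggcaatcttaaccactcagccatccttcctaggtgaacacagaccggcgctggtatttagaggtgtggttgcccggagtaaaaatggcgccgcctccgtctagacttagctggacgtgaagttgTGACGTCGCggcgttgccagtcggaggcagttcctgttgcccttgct
Psmb6, plus strand, chr11:70525107-70525356: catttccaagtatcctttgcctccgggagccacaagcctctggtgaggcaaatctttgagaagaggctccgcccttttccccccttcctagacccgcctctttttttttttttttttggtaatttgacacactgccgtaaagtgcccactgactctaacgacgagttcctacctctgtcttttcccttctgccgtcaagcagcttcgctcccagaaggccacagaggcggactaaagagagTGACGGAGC
The match starts 47 bases before the start site in Psmb5 and 9 bases before it in Psmb6. Searched on both strands, TGACNNNGC was found in the windows of 4 of the 34 members that have one (11.8%), against 11.5% of 27025 RefSeq genes. The other 2 were Psmc6 and Psmd12. The related core TGAGNNNGC, which differs from the first in 1 base and cannot match at the same position and strand, was found in 8 of 34 (23.5%), against 16.3% of all. Ifng, which is no subunit, is among these 34 and these 8. The windows are placed by RefSeq start sites, which for some members differ from the gene start in the deposited table. A match describes letters and was not tested as a binding site.

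None of the 4 non-catalytic beta subunits was called. Their log2 fold changes were -0.16 for Psmb2, -0.032 for Psmb1, 0.0055 for Psmb4 and 0.11 for Psmb3. Psmb2 stood at 67.0 and 68.2 CPM with DI and at 79.3 and 71.3 CPM with DMSO, so that the DMSO libraries differed from each other by more than the nearest of them did from DI (adjusted p = 0.206, edgeR). For the 20S core as a whole, 1 of 15 tested members was called, against 14.8% of all tested genes, and the median log2 fold change was -0.032. Scaled by library size only, that median was -0.14, where the median of all tested genes was -0.10.

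The 19S particle held no called gene. All 16 members were tested with edgeR, 0 were called, 2 had an unadjusted p under 0.05, and both of these were higher with DI. Of all tested genes, 14.8% were called and 30.0% had an unadjusted p under 0.05. The log2 fold changes ran from -0.12 to 0.17, with a median of 0.036 that turned to -0.067 when scaled by library size only, where all tested genes had a median of -0.10. By the DESeq2 Wald test and by edgeR's exact test the count of called 19S members was also 0.

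Psmc1 and Psmc5, subunits of the ATPase ring, were its ends. Psmc1 stood at 164 and 166 CPM with DI against 146 and 150 CPM with DMSO, and the groups were apart by more than the distance within either. The log2 fold change was 0.16 (SE 0.042, unadjusted p = 0.00924, adjusted p = 0.0580, edgeR). It missed the call by a small margin, and over the 15 alternatives the adjusted p ran from 0.0525 to 0.415. Processed pseudogenes match Psmc1 over up to 82% of its transcript. Psmc5 stood at 82.1 and 82.7 CPM with DI against 93.6 and 85.8 CPM with DMSO, a log2 fold change of -0.12 (adjusted p = 0.247, edgeR). The remaining ATPase genes Psmc2, Psmc3, Psmc4 and Psmc6 lay between -0.044 and 0.062.

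Among the non-ATPase genes of the 19S particle, Psmd11 had the highest fitted change and rested on 1 library. It stood at 72.5 and 90.2 CPM with DI against 70.9 and 74.3 CPM with DMSO, so that the groups overlapped (log2 fold change 0.17, adjusted p = 0.361, edgeR), and without DI replicate 2 the log2 fold change was 0.0013. Psmd2, a scaffold subunit of the base, had the most counts of the particle in each library, and stood at 385 and 372 CPM with DI against 353 and 345 CPM with DMSO. Its groups did not overlap, and its log2 fold change was 0.12 (unadjusted p = 0.0233, adjusted p = 0.103, edgeR). The transcribed pseudogene Gm5422 matches 91.9% of the Psmd2 transcript at 96.4% identity and had 221 counts per library on average, so a small part of the Psmd2 reads is uncertain. Psmd4, a receptor of ubiquitin chains, was the lowest, at 74.8 and 70.8 CPM with DI against 77.4 and 77.9 CPM with DMSO (log2 fold change -0.093, adjusted p = 0.340, edgeR). Psmd14, the deubiquitinase of the lid, was at 107 and 102 CPM with DI against 102 and 96.2 CPM with DMSO, and the log2 fold change was 0.079 with an interval from -0.056 to 0.21. Psmd8 showed the widest gap in CPM between libraries of 1 group, at 301 and 364 CPM with DI against 341 and 317 CPM with DMSO.

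The core and the particle were set side by side in each library. The summed CPM of the 20S members divided by that of the 19S members was 0.627 and 0.612 with DI and 0.635 and 0.632 with DMSO. Both DI libraries lay below both DMSO libraries, but they differed from each other by more than the nearest of them did from DMSO. The ratio of summed FPKM, which corrects for gene length, was 1.05 and 1.02 with DI and 1.04 and 1.05 with DMSO, and there the groups overlapped. The median log2 fold change of the 20S core was lower than that of the 19S particle, with a difference of -0.068 that was -0.032 without DI replicate 2. All members together took 0.432% and 0.449% of the counts with DI and 0.467% and 0.455% with DMSO. On this share, which carries no TMM factor, both DI libraries lay below both DMSO libraries. The DI libraries again differed from each other by more than the nearest of them did from DMSO. In units of CPM the sum of all members was 4489 and 4642 with DI and 4504 and 4397 with DMSO, where the groups overlapped.

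Levels per length differed far more between the genes than between the treatments. Averaged over the 4 libraries, the 20S genes other than Psma8 and Psmb11 ran from 7.53 FPKM for Psma3 to 127 FPKM for Psmb5, and the 19S genes from 7.44 FPKM for Psmd11 to 149 FPKM for Psmd8. Psma2 (122 FPKM) and Psmb1 (116 FPKM) stood next to Psmb5, and at the top of the 19S genes Psmd8 was followed by Psmc1 (103 FPKM). The lengths behind these FPKM values are those of the authors' gene models, and genes with near-identical copies, such as Psma3, Psma5, Psmb5, Psmc1 and Psmd11, may have lost or gained reads to them, so the order of levels is less certain than each gene's comparison between groups. For Psma5, counted 611 to 670 times per library, the processed pseudogene Gm8394 matches 76.5% of the transcript at 98.6% identity. Gm8394 had 402 counts per library on average.

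**Figure D3:**
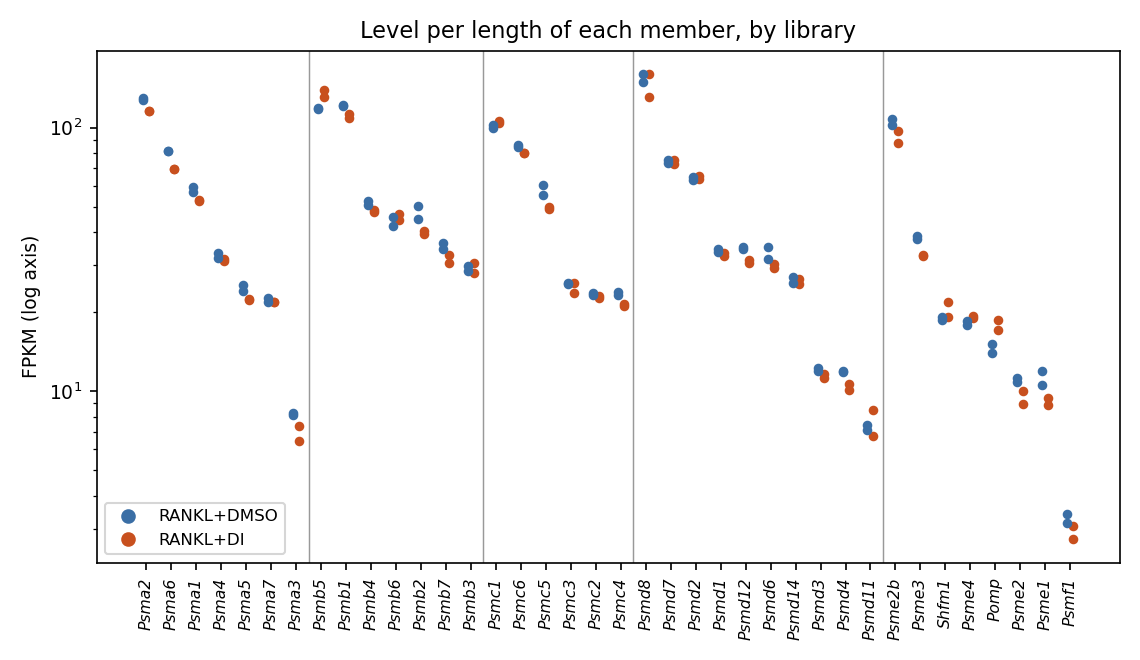
FPKM on a log axis for 38 tested members (horizontal axis, all but Psma8, ordered by mean level within alpha, beta, ATPase, non-ATPase and other genes), with 1 dot for each of the 4 libraries. The dots of the 2 groups lie close together for each gene, while the genes spread from about 3.10 FPKM (Psmf1) to 149 FPKM (Psmd8).

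Outside the core and the 19S particle, 8 of 9 members were tested, 2 were called higher and 0 lower, and the median log2 fold change was -0.079. Of all tested genes, 7.14% were called higher and 7.70% lower. Pomp (ENSMUSG00000029649, GRCm38 chr5:147860461-147876456), the chaperone that completes the assembly of the core and is itself its first substrate, rose the most of all members. It stood at 112 and 121 CPM with DI and at 84.5 and 91.6 CPM with DMSO, with every DI library above every DMSO library. The level was 117 ± 6.86 CPM against 88.1 ± 5.03 CPM (mean ± SD, n = 2), a rise of 0.40 on the log2 scale (SE 0.067, adjusted p = 0.0138, edgeR), or 32.4% higher. Without DMSO replicate 1 it was 0.35 and the call was lost (adjusted p = 0.0530, edgeR), while the other 14 of 15 alternatives called it, with adjusted p from 3.79e-04 up. No other gene overlapped its exons, and no copy passed the limits of the search.

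Psme4 (ENSMUSG00000040850, GRCm38 chr11:30771726-30880361), the PA200 activator that caps the core without ATP, stood at 183 and 179 CPM with DI and at 157 and 162 CPM with DMSO. The 2 groups did not overlap, and the level was 181 ± 2.82 CPM against 160 ± 4.03 CPM (mean ± SD, n = 2). This is a rise of 0.18 on the log2 scale (SE 0.043, adjusted p = 0.0399, edgeR), or 13.7% higher. This call was the least stable of the 3. It was made in 5 of the 15 alternatives, with adjusted p from 0.0360 to 0.295, and was lost with each library left out in turn (0.0808 to 0.143, edgeR). Scaled by library size only, the log2 fold change was 0.081.

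The genes of the 11S activator ring, Psme1 and Psme2, which interferon induces together with the immunoproteasome, were not called. Psme1 stood at 54.6 and 58.1 CPM with DI against 68.4 and 60.5 CPM with DMSO, and its log2 fold change of -0.19 was the lowest of these members (unadjusted p = 0.0557, adjusted p = 0.178, edgeR). Psme2 had a log2 fold change of -0.11 and Psme2b, a gene whose transcript matches that of Psme2 at 99.3% identity, of -0.084, and reads of the pair cannot be assigned with certainty. Psme3, the nuclear activator gene, stood at 127 and 124 CPM with DI against 138 and 134 CPM with DMSO. Its log2 fold change was -0.12 (adjusted p = 0.130, edgeR). It was called lower only when scaled by library size alone (-0.22, adjusted p = 0.0189, edgeR) and on FPKM. Shfm1 stood at 73.6 and 83.8 CPM with DI against 66.8 and 68.9 CPM with DMSO, a log2 fold change of 0.21 (adjusted p = 0.128, edgeR). Psmf1 was at -0.073. Ifng had 0 counts in all 4 libraries and was not tested.

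**Figure D4:**
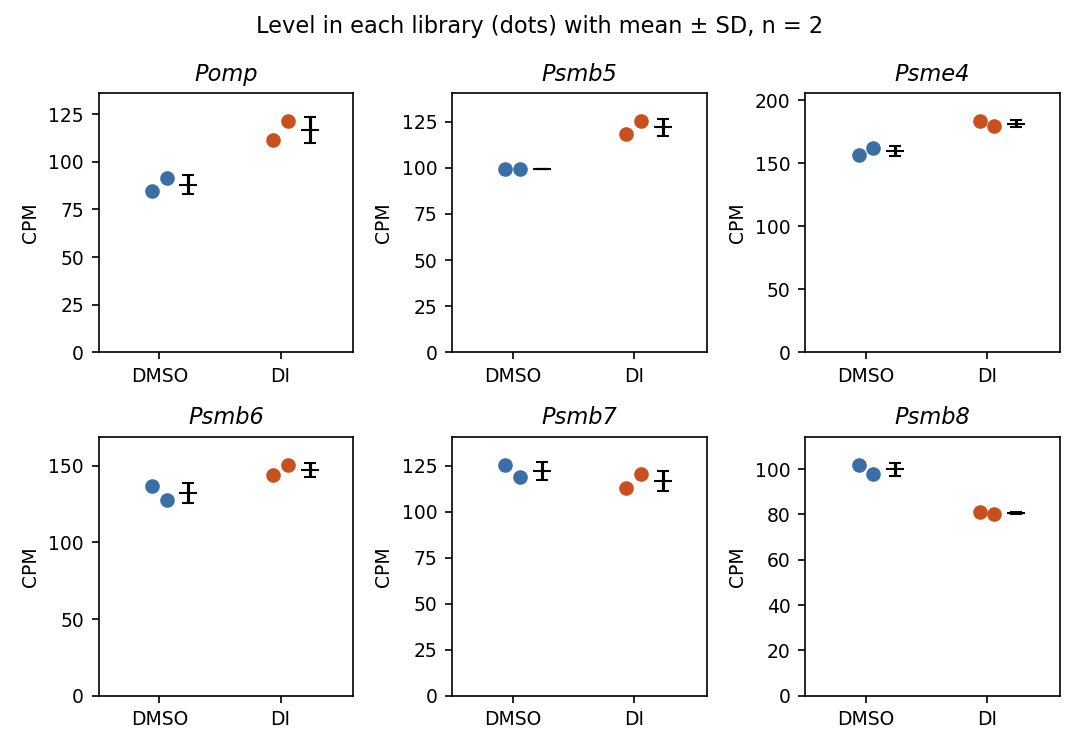
CPM (vertical axis, from 0) of 6 genes in each library, with dots for the 2 libraries of RANKL+DMSO and RANKL+DI and a bar for the mean ± SD (n = 2). Pomp, Psmb5 and Psme4 lie higher in both DI libraries, Psmb8 lies lower, and the groups of Psmb7 overlap.

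The 3 inducible subunits that were set aside were all lower in sign with DI, and 1 of them was called. Psmb8 stood at 81.1 and 80.3 CPM with DI and at 102 and 97.8 CPM with DMSO, and it fell by 0.31 on the log2 scale (SE 0.052, adjusted p = 0.0144, edgeR), or 19.2% lower. The call was lost without DMSO replicate 1 (adjusted p = 0.0584, edgeR). Psmb10 was at 44.8 and 41.8 CPM against 47.7 and 48.5 CPM (log2 fold change -0.15, adjusted p = 0.202, edgeR) and Psmb9 at 21.0 and 18.5 CPM against 20.7 and 21.9 CPM (log2 fold change -0.11, adjusted p = 0.544, edgeR), neither of them called. Psmb10 was called lower only when scaled by library size alone (-0.25, adjusted p = 0.0480, edgeR) and on FPKM.

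The ratio of each catalytic subunit to its inducible counterpart does not depend on the scaling of a library. The FPKM of Psmb5 was 6.46 and 6.89 times that of Psmb8 in the DI libraries and 4.30 and 4.49 times in the DMSO libraries, so the groups were apart by much more than the distance within either. The geometric mean of this ratio was 1.52-fold higher with DI. For Psmb6 and Psmb9 it was 13.9 and 16.5 with DI against 13.4 and 11.8 with DMSO, and for Psmb7 and Psmb10 it was 0.899 and 1.03 against 0.939 and 0.874, where the groups overlapped. The size of these FPKM ratios depends on the lengths of the authors' gene models. On counts, without that correction, the mean log2 ratio of Psmb5 to Psmb8 was 0.60 with DI and -0.0070 with DMSO. On the same scale it was 2.90 and 2.63 for Psmb6 to Psmb9, and 1.43 and 1.34 for Psmb7 to Psmb10. With 2 libraries against 2, the smallest p that an exact permutation test (two-sided) can give is 0.333, which is what the first and second pairs gave, and the third gave 0.667. The test cannot reach 0.05 in this design.

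**Figure D5:**
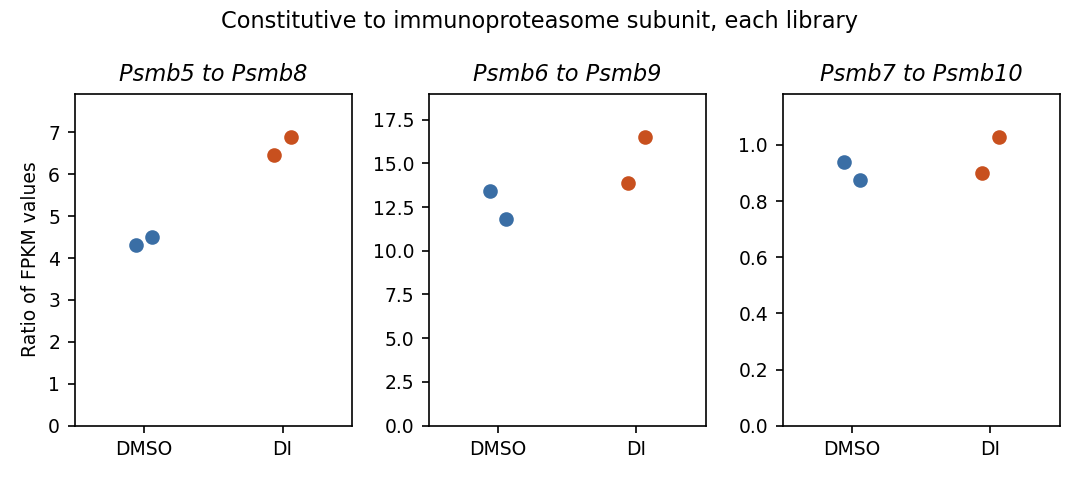
Ratio of FPKM values (vertical axis, from 0) of each constitutive catalytic subunit to its inducible counterpart, with 1 dot per library. Psmb5 to Psmb8 lies at 6.46 and 6.89 with DI above 4.30 and 4.49 with DMSO, while the dots of Psmb7 to Psmb10 overlap between groups.

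Genes that serve the proteasome but are not in its KEGG pathway were read from lists of the ubiquitin-proteasome system. In all, 31 such genes were tested, of which 3 were called higher and 2 lower. Of all tested genes, 7.14% were called higher and 7.70% lower. The assembly chaperone Psmd10, called gankyrin, fell from 44.8 and 45.0 CPM with DMSO to 35.6 and 35.8 CPM with DI (log2 fold change -0.33, adjusted p = 0.0201, edgeR), and the call was lost with each library left out in turn (0.0691 to 0.0833). The other assembly factors on the list besides Pomp, namely Psmg1, Psmg2, Psmg3, Psmg4, Psmd5 and Psmd9, were not called, with log2 fold changes from -0.29 (Psmg3) to 0.25 (Psmd5). The subunit genes Adrm1 and Psmd13, which this pathway annotation does not hold, were at -0.038 and -0.012.

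Among the genes that encode ubiquitin, Ubb was called higher. It stood at 256 CPM in both DI libraries and at 211 and 206 CPM with DMSO (log2 fold change 0.30, adjusted p = 0.00671, edgeR), and was called in all 15 alternatives. Rps27a, which encodes ubiquitin fused to a ribosomal protein, fell from 46.0 and 51.3 CPM to 38.7 and 34.2 CPM (log2 fold change -0.42, adjusted p = 0.0347, edgeR). With single libraries left out, the call was lost without DI replicate 2 (0.119), DMSO replicate 1 (0.0501) or DMSO replicate 2 (0.119).

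Sqstm1, which encodes the autophagy receptor p62 and is a known target of NRF2, had the largest change of these genes. It rose from 899 and 804 CPM with DMSO to 1365 and 1366 CPM with DI, a log2 fold change of 0.68 (adjusted p = 0.00180, edgeR), and was called in all 15 alternatives. The segregase gene Vcp was at 0.13 (adjusted p = 0.0757, edgeR), and the deubiquitinase gene Usp14, which shares 26% of its exon bases with Thoc1 on the opposite strand, at -0.19 (adjusted p = 0.0874, edgeR). Of the regulators of proteasome genes, 5 were tested and 0 were called by edgeR, and 0 had an unadjusted p under 0.05 or were called by the DESeq2 Wald test. The log2 fold change was 0.10 for Nfe2l1, which encodes NRF1, 0.072 for Nfe2l2, which encodes NRF2, 0.22 for Keap1, 0.057 for Ddi2, the protease that activates NRF1, and 0.11 for Ngly1, the glycanase that acts on NRF1. Ddi2 shares 18.3% of its exon bases with Rsc1a1 on the same strand, so their reads there cannot be told apart. Rsc1a1 had 1185 counts per library on average. Scaled by library size only, Nfe2l1 was at -0.00014, Nfe2l2 at -0.032 and Ddi2 at -0.046. These are levels of messenger RNA, and the amount and activity of these proteins were not analysed here.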

How the data were processed

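RNA was sequenced from 4 libraries of BMMs, grouped by their labels into RANKL+DI and RANKL+DMSO with 2 each. The authors deposited unnormalized whole-number counts for each gene, and FPKM values scaled to gene length and library total. GRCm38 (mm10) is named in the submitters' processing notes. The aligner, the counter and the annotation release are not given in the sources used here. All gene rows have a name, and 0 columns of single samples were left out.

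Counts of the whole table were fitted in R 4.3.3 with edgeR 4.0.16 (TMM, default filter, quasi-likelihood test, condition as the only term, 2 residual degrees of freedom before moderation), with Benjamini-Hochberg adjustment over 12590 genes. TMM factors were 0.963 to 0.967 with DI and 1.04 with DMSO. Standard errors and 95% intervals follow from the F statistic. Replicates differed by more than sampling noise (chi-square per degree of freedom 7.57 with DI and 7.74 with DMSO) and were counted separately. Floors cover counting error only. Alternatives used other scalings, filters, DESeq2 1.42.0, limma 3.58.1 on log2(FPKM + 0.01) and log2(FPKM + 1), a replicate block, and each library left out. The quasi-likelihood fit of edgeR with its default filter was tested on simulated counts, and the other steps were not.

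Members and lists were chosen with earlier results of these data known. Named genes were every called member, the catalytic subunits, the highest and lowest change of each subgroup, members that were not tested, the left-out subunits, and, of the wider lists, called genes and regulators. Other members (Psma6, Psmb1 to Psmb4, Psmd2, Psmd8, Psmd14, Psme2, Psme2b, Psme3, Psmf1, Shfm1) and Psmg1 to Psmg4, Psmd5, Psmd9, Adrm1, Psmd13, Vcp and Usp14 were added after their values were seen. Some genes counted in the wider lists are not reported here by name. Copies (at least 95% identity over at least 20% of a transcript) were searched in GENCODE M21 with BLAST+ 2.17.0. The study names a Student test for 2 groups in general and no program for the RNA data.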

Additional observations from a re-analysis of the deposited data

How the results depend on the processing

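The number of called genes among all tested was 1868, 899 higher and 969 lower, and it was 1073 to 1369 with each library left out and 3775 at an unadjusted p. Scaled by library size only, the split was 548 higher and 1932 lower, and the median change over all tested genes was -0.10 on the log2 scale. Under that scaling 9 members were up in sign and 30 down, against 20 and 19, and 2 were called higher and 2 lower. On log2(FPKM + 0.01) and log2(FPKM + 1), which carry no TMM factor either, 2 members were called higher and 6 lower, with medians over all tested genes of -0.10 and -0.068. With DESeq2 size factors in place of TMM, 20 members were up in sign and 19 down, and with upper quartile factors 19 and 20. Each of these factors gave 3 members called higher and 0 lower. Called 20S members numbered 1, but 2 with library size only, 4 on either FPKM scale, 0 to 1 with a library left out and 3 at an unadjusted p. Called 19S members numbered 0, but 2 on either FPKM scale (Psmc5 and Psmd12, both lower) and 2 at an unadjusted p. Of the other members 2 were called, but 1 by the DESeq2 Wald test (Psme4 at an adjusted p of 0.0626), 1 by edgeR's exact test (Psme4 at 0.208), 0 to 1 with a library left out and 4 at an unadjusted p. Of the wider lists 5 genes were called, 3 to 4 with a library left out and 9 at an unadjusted p. The median of the 20S core was -0.032, and -0.14, -0.14 and -0.13 with library size only, log2(FPKM + 0.01) and log2(FPKM + 1). That of the 19S particle was 0.036, and -0.067, -0.068 and -0.065 in the same order, and -0.0018 to 0.062 with a library left out. Their difference was -0.068, -0.032 to -0.083 with a library left out and -0.041 with means in place of medians. Under a replicate block, 1389 genes and 1 of the other members were called, Psme4 having an adjusted p of 0.0784 and Rps27a of 0.0738 (edgeR), and the block changed no other call among the named genes. With a library left out, the single library of its group is assumed to vary like the libraries of the other group. Libraries with the same replicate number did not deviate together (correlation -0.063), so the numbers were not taken as pairs. The cause of these shifts was not tested, except that library size only and the FPKM scales lack the TMM factor by construction.

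Small changes turned sign in the settings that scale by library total alone, which are library size only and the FPKM scales. In the order library size only, log2(FPKM + 0.01) and log2(FPKM + 1), the values were -0.046, -0.046 and -0.043 for Ddi2, -0.032, -0.032 and -0.031 for Nfe2l2, -0.060, -0.060 and -0.058 for Psma4, -0.028, -0.027 and -0.026 for Psma7, -0.10, -0.10 and -0.10 for Psmb4, -0.041, -0.041 and -0.040 for Psmc2, -0.051, -0.052 and -0.050 for Psmc3, -0.083, -0.083 and -0.082 for Psmc6, -0.052, -0.052 and -0.050 for Psmd1, -0.024, -0.024 and -0.023 for Psmd14, -0.087, -0.087 and -0.080 for Psmd3, -0.0097, -0.0095 and -0.0094 for Psmd7, and -0.088, -0.094 and -0.094 for Psmd8. With library size only Nfe2l1 was at -0.00014, and with upper quartile factors Psmb4 was at -0.0027. With a library left out the sign also turned for Nfe2l1 (-0.034 to 0.25), Ngly1 (-0.00054 to 0.21), Psma5 (-0.071 to 0.0073), Psmb4 (-0.020 to 0.032), Psmc3 (-0.0094 to 0.11), Psmd3 (-0.0050 to 0.040), Psmd6 (-0.14 to 0.015), Psmd8 (-0.13 to 0.15) and Psmf1 (-0.16 to 0.0072). None of these genes was called in any of the 15 alternatives. All alternatives were planned, and every one gave values.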
